A study of Mus musculus with 4 samples.

Results

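Dbx2 and 8 further genes of ventral forebrain patterning and of GABA-producing neurons were followed in cultured mouse cortical progenitors that received hairpins against 3 transcriptional regulators. The 9 genes were Dbx1, Dbx2, Gsx1, Gsx2, Dlx1, Dlx2, Dlx5, Gad1 and Gad2, taken by symbol in GENCODE M21 from the 34866 gene identifiers of the count table; each symbol matched a single identifier. They were picked with earlier fold changes of this same contrast in view, Dbx2 for its higher level, so their fold changes are given here as a description, and calls among them are only counted. The sh3F group held 2 libraries of cells carrying lentiviral hairpins against Phf21b, Zfp7 and Zfp57 together, each vector at a multiplicity of infection of 10. The shControl group held 2 libraries of cells carrying a control hairpin in 1 vector at a multiplicity of infection of 30. In both groups the cells were primary neural stem and progenitor cells of the E11.5 dorsal telencephalon, infected after dissociation and kept as neurospheres with basic fibroblast growth factor to day 5. The genotype label reads WT for shControl; for sh3F it reads as a knockdown and spells the targets Phf21, Sfp7 and Zfp57. The Zfp7 and Zfp57 hairpins sat in another vector backbone than the control hairpin, so hairpin, vector number and backbone cannot be told apart in any value below. The labels do not say whether the replicates came from separate cultures, so a p-value covers only how much these libraries vary, which may be technical.

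The developing forebrain is divided along its dorsoventral axis into a pallium, which makes glutamatergic neurons of the cortex, and a subpallium, the ganglionic eminences, which makes GABAergic neurons. In the subpallium the homeobox factors Gsx2 and Gsx1 act in progenitors upstream of the Dlx factors, and the Dlx factors activate the genes for the GABA-synthesising enzymes Gad1 (GAD67) and Gad2 (GAD65). Dbx1 and Dbx2 are homeobox genes of intermediate positions in the neural tube; in the spinal cord they mark progenitors of ventral interneurons, and in the forebrain Dbx1 marks progenitors at the boundary between pallium and subpallium.

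The libraries had total estimated counts of 17901386 and 15170491 in sh3F and of 20779211 and 14694387 in shControl. Levels are given in CPM, counts scaled by library total and TMM factor. Forebrain progenitor markers were detected in each library, 11 of 11 listed, and 0 passed the test. Among them the neural progenitor factor Sox2 averaged 52.8 CPM in sh3F and 64.5 CPM in shControl. The 3 targeted genes were below control without passing the test: log2 fold changes were -0.29 for Phf21b, -0.37 for Zfp7 and -0.40 for Zfp57 (edgeR adjusted p = 0.644, 0.80 and 0.341).

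Promoter sequences are shown for the Dbx pair and for Gsx2, because Dbx2 has the highest fold change of the 9, Dbx1 is its paralog, and Dbx1 and Gsx2 are the genes of the group that carry a copy of TGCCGC, the hexamer that Zfp57 is known to bind when its CpG is methylated. Each is the RefSeq promoter in GRCm38.p6, 250 bases before to 50 after the annotated start, written 5′ to 3′ on the strand of the gene, with TGCCGC in capitals.
Dbx2 (chr15:95654722-95655021, minus strand): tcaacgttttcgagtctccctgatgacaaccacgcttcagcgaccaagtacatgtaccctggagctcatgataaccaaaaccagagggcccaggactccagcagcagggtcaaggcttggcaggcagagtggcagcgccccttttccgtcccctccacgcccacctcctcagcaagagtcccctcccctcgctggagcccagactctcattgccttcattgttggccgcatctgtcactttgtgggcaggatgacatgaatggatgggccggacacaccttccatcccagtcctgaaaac
Dbx1 (chr7:49636786-49637085, minus strand): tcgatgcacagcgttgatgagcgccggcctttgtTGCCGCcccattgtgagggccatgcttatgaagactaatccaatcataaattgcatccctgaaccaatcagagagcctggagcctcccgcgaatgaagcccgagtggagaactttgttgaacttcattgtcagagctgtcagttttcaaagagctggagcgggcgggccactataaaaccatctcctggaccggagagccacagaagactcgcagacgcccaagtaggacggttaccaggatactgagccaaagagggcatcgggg
Gsx2 (chr5:75075351-75075650, plus strand): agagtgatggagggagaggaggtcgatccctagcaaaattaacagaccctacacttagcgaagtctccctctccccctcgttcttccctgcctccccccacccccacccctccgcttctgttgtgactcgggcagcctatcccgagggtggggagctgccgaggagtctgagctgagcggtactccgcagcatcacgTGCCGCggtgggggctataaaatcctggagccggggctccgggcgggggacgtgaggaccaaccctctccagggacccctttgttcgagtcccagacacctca
The RefSeq table held a promoter for 8 of the 9 genes. TGCCGC, searched on both strands, occurred in 2 of these 8, against 11.6% of all 32851 promoters of this length. In Dbx1 the match begins 216 bases before the start, and in Gsx2 it begins 53 bases before it. The other motifs searched on both strands were the core of the interferon-stimulated response element (GAAA, any 2 bases, GAAA) and TAATTA, a core bound by homeodomains. Neither was found in the 8 windows, while 3.44% and 5.29% of all promoters held them. The Dbx2 window held 10 CpG dinucleotides and the Dbx1 window 15, against a median of 7 over all promoters. The RefSeq start of Dbx2 lies 1189 bases downstream of the outermost start in GENCODE M21, so the window shows 1 of the possible starts. The same limit holds for Dlx1 and Gad1, whose RefSeq starts lie 1332 and 9057 bases downstream.

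Dbx2 stood well above control in both sh3F libraries, whereas its paralog Dbx1 was barely detected in any library. Dbx2 (ENSMUSG00000045608.7, chromosome 15, 95623563 to 95655960 in GRCm38, minus strand) had 48 and 38 counts in sh3F, against 10 and 8 counts in shControl. That is 2.56 and 2.48 CPM in sh3F and 0.464 and 0.601 CPM in shControl. The replicates of each group lay close together, but with so few counts this closeness is no measure of precision. The groups did not overlap, which adds nothing, because Dbx2 was picked for its higher level. The means were 2.52 ± 0.0586 CPM in sh3F and 0.533 ± 0.0965 CPM in shControl (SD, n = 2 each), and the log2 fold change was 2.26 (SE 0.46), or 4.78-fold with a 95% interval of 2.52 to 9.05. From the summed counts, scaled by library size, the ratio was 4.88 with an exact interval of 2.91 to 8.62, which covers counting error only. None of the 31-mers of its transcripts occurs in another gene, and no exon overlaps another gene. Of 14050 tested genes, 27 had a higher log2 fold change than Dbx2, and 25 of these were called at the 0.05 threshold of edgeR's adjusted p. This rank is a description only, because Dbx2 was picked for its higher level. With 10 and 8 counts in shControl, Dbx2 entered the test only through its sh3F libraries.

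Dbx1 (ENSMUSG00000030507.6, chromosome 7, 49631499 to 49636849, minus strand) had 0 and 1 counts in sh3F and 4 and 2 counts in shControl. It was too low for the test. The count ratio of 0.170 has an exact interval of 0.0037 to 1.40, which includes 1, so a lower level in sh3F was not detectable at this depth; its upper end is below the ratio of Dbx2. A count of 0 in sh3F replicate 1 allows a level of up to 0.160 CPM (3 counts). In each library with a Dbx1 count Dbx2 was the more abundant of the pair, by 22.9 times per kilobase of exon in sh3F replicate 2 and by 1.51 and 2.41 times in shControl replicates 1 and 2.

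**Figure D1:**
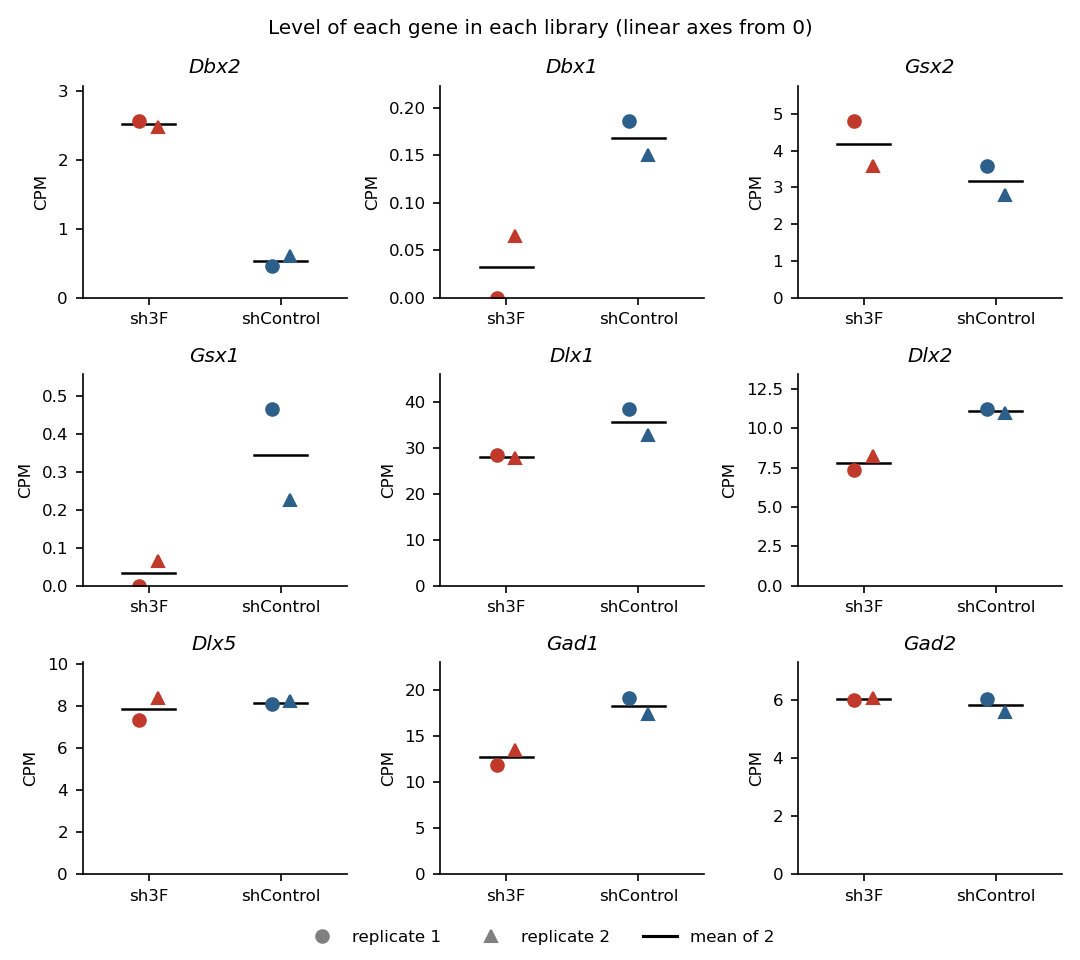
Level of each of the 9 genes in CPM (linear axes from 0) in the sh3F libraries (red, left) and the shControl libraries (blue, right); circles are replicate 1, triangles replicate 2, and bars the mean of 2. Dbx2 stands at 2.48 to 2.56 CPM in sh3F against 0.464 to 0.601 CPM in shControl, Gad1 and Dlx2 are lower in both sh3F libraries, and Gad2 and Dlx5 overlap between the groups.

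Of the 9 genes, 7 passed the filter on low counts and were tested, and Dbx1 and Gsx1 did not pass. Dbx2 passed this filter through its sh3F libraries alone. In edgeR's quasi-likelihood test across all genes 1 of the 7, Dbx2, had an adjusted p under 0.05 and was higher in sh3F, where 0.541% of all tested genes were called higher. Of the 7 genes 0 were called lower, where 0.826% of all tested genes were. At an unadjusted threshold of 0.05, 3 of the 7 were lower (Gad1, Dlx2 and Dlx1), where 6.85% of all tested genes were. DESeq2, run without a filter, called 0 of the 9. The call of Dbx2 was also lost without sh3F replicate 1, where the log2 fold change was 2.23. Where a library is left out, its group keeps 1 library, which is assumed to vary like those of the other group. Over the 11 alternatives its log2 fold change ranged from 2.05 to 2.43. Both sh3F libraries lay above both shControl libraries for 2 of the 7 genes, against 19.6% of all tested genes, and below them for 3 of the 7, against 21.7%. Because the genes were picked on this contrast, nothing is read from these counts.

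Of the subpallial progenitor factors, Gsx2 was readily detected and Gsx1 was near the limit of detection. Gsx2, which sets up the lateral ganglionic eminence (ENSMUSG00000035946.7, chromosome 5, 75075601 to 75077893, plus strand), measured 4.80 and 3.58 CPM in sh3F and 3.58 and 2.78 CPM in shControl. The lower sh3F library and the higher shControl library nearly coincide. Its log2 fold change was 0.39 (SE 0.27; 95% interval -0.16 to 0.93), and it ranged from 0.16 without sh3F replicate 1 to 0.60 without shControl replicate 1. Gsx1, a related factor of the medial and lateral eminences (ENSMUSG00000053129.5, chromosome 5, 147188696 to 147190947, plus strand), had 0 and 1 counts in sh3F and 10 and 3 counts in shControl. The shControl replicates themselves differ, at 0.464 and 0.225 CPM. The count ratio was 0.0786 with an exact interval of 0.00185 to 0.523, counting error only, and with 1 count in the sh3F group no test across replicates was made. In each library with a Gsx1 count Gsx2 was the more abundant of this pair per kilobase of exon, by 58.6 times in sh3F replicate 2 and by 8.20 and 13.1 times in shControl replicates 1 and 2.

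Among the Dlx factors, which specify and maintain GABAergic neurons and lie in pairs that share enhancers, Dlx1 and Dlx2 were lower in both sh3F libraries and Dlx5 overlapped between the groups. Dlx1 (ENSMUSG00000041911.3, chromosome 2, 71528113 to 71533981, plus strand) measured 28.4 and 27.8 CPM in sh3F and 38.4 and 32.9 CPM in shControl. Its log2 fold change was -0.35 (SE 0.15), or 78.6% of control, and ranged from -0.44 to -0.23 over the alternatives. Of its exonic bases 6.21% overlap the antisense gene Dlx1as. Dlx2 (ENSMUSG00000023391.8, chromosome 2, 71543408 to 71546754, minus strand), its partner 9.43 kb away, measured 7.36 and 8.21 CPM in sh3F and 11.2 and 11.0 CPM in shControl. Its log2 fold change was -0.51 (SE 0.19), or 70.1% of control. The groups do not overlap for either gene, and neither passed the test across all genes in any of the 11 alternatives.

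Dlx5 (ENSMUSG00000029755.10, chromosome 6, 6877805 to 6882085, minus strand) measured 7.36 and 8.40 CPM in sh3F and 8.08 and 8.26 CPM in shControl. Both shControl values lie between the sh3F values. Its log2 fold change was -0.05 (95% interval -0.46 to 0.35), and it turned to 0.03 with scaling by library size alone. Dlx6, the partner of Dlx5 at 9.24 kb, measured 4.76 and 5.01 CPM in sh3F and 5.59 and 6.47 CPM in shControl (log2 fold change -0.29, edgeR adjusted p = 0.673). The ratio of Dlx1 to Dlx2 counts was 3.86 and 3.38 in sh3F and 3.43 and 3.0 in shControl, so the groups overlap in it. The remaining family members were low: Dlx3 stood at 1.65 and 1.11 CPM in sh3F and 0.604 and 1.35 CPM in shControl, and Dlx4 had at most 0.0751 CPM in any library.

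Of the enzymes that make GABA, Gad1 was lower in both sh3F libraries and Gad2 overlapped between the groups. Gad1, which makes most of the GABA of the cell body (ENSMUSG00000070880.10, chromosome 2, 70553072 to 70602014, plus strand), measured 11.9 and 13.5 CPM in sh3F and 19.2 and 17.4 CPM in shControl. The groups are apart, and the log2 fold change was -0.53 (SE 0.17), or 69.1% of control with a fold interval of 0.546 to 0.875. Gad2, the form tied to synaptic vesicles (ENSMUSG00000026787.3, chromosome 2, 22622205 to 22693874, plus strand), measured 6.0 and 6.10 CPM in sh3F and 6.06 and 5.61 CPM in shControl. The groups overlap, and the log2 fold change was 0.05 (95% interval -0.40 to 0.49). The ratio of Gad1 to Gad2 counts, which does not depend on library scaling, was 1.98 and 2.21 in sh3F and 3.16 and 3.10 in shControl. Both sh3F ratios are below both shControl ratios. This was not particular to the Gad pair. The ratio of Dlx1 to Dlx5 counts was 3.86 and 3.30 in sh3F and 4.75 and 3.98 in shControl, also apart. That of Dlx5 to Dlx6 was 1.55 and 1.68 in sh3F and 1.45 and 1.28 in shControl, apart in the other direction. How often such ratios separate by group over all genes was not measured. Of the 31-mers of Gad1 and Gad2, 3.97% and 1.75% occur in another gene. Gad1 passed the threshold in 1 of 11 alternatives, without shControl replicate 2, and its log2 fold change ranged from -0.62 to -0.44.

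Markers of neurons in general had a lower summed level in both sh3F libraries, as had Gad1, Dlx1 and Dlx2 singly. The summed level of 10 pan-neuronal markers, a list added after the data were seen, was 749 and 782 CPM in sh3F and 975 and 897 CPM in shControl. Of these markers 9 of 10 had a log2 fold change below 0, with a median of -0.27. The neuronal tubulin Tubb3 was called lower, 1 of 10, and 9 of 10 did not pass. Over all tested genes 0.826% were called lower. In bulk RNA, fewer cells of a type and less RNA per cell cannot be told apart. Per 1000 counts of these markers, Gad1 stood at 15.9 and 17.3 in sh3F and 19.7 and 19.3 in shControl, where the groups stay apart. Dlx1 stood at 37.9 and 35.5 in sh3F and 39.3 and 36.7 in shControl, where the groups overlap. Dlx2 stood at 9.82 and 10.5 in sh3F and 11.48 and 12.2 in shControl. On the same scale Gad2 was higher in sh3F, at 8.01 and 7.80 against 6.22 and 6.25 in shControl, and so was Dlx5, at 9.82 and 10.8 against 8.29 and 9.21. This scale raises every gene in sh3F relative to shControl, because the marker sum was lower in sh3F. In CPM both Gad2 and Dlx5 overlapped between the groups. Dbx2 stood at 3.42 and 3.17 in sh3F and 0.476 and 0.67 in shControl. These values carry no test, and the part of neuron content in the differences was not tested.

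**Figure D2:**
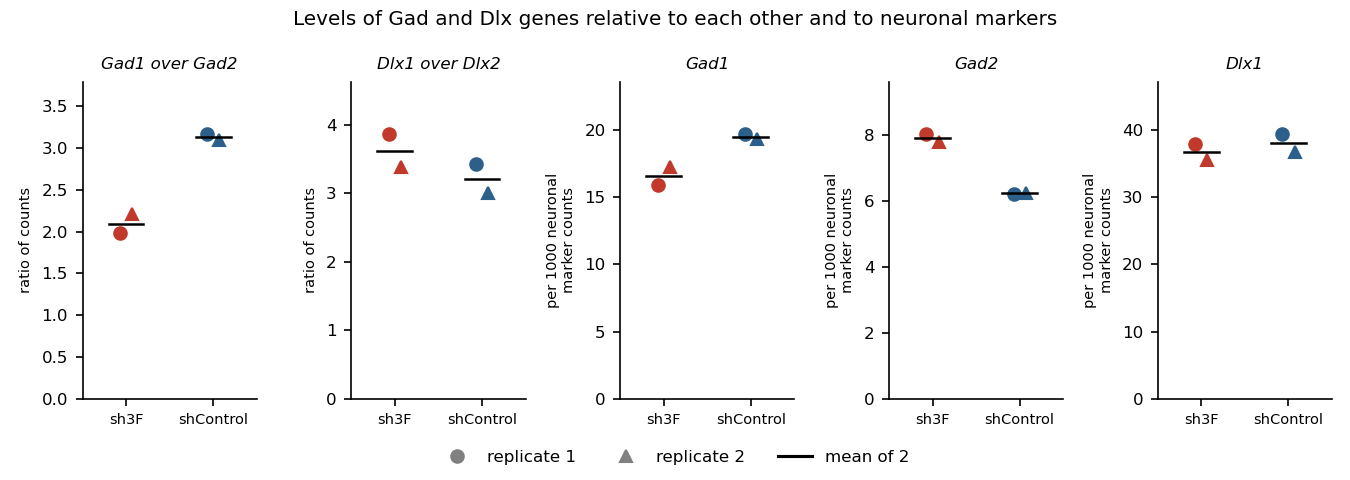
Ratio of counts of Gad1 over Gad2 and of Dlx1 over Dlx2 (left), and counts of Gad1, Gad2 and Dlx1 per 1000 counts of 10 pan-neuronal markers (right), in sh3F (red) and shControl (blue); symbols are libraries, bars the mean of 2, and axes are linear from 0. The Gad1 to Gad2 ratio is 1.98 and 2.21 in sh3F against 3.16 and 3.10 in shControl, and Dlx1 overlaps between the groups once set against neuronal markers.

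The order of the genes by level per kilobase of exon was similar in both groups at the top and the bottom. Dlx1 ranked first, with a mean of 5.20 CPM per kilobase in sh3F and 6.604 in shControl. In sh3F it was followed by Dlx5 (3.48), Dlx2 (2.73), Gsx2 (2.52), Gad1 (1.66), Gad2 (1.03), Dbx2 (0.726), Gsx1 (0.0184) and Dbx1 (0.0156) CPM per kilobase. The ranges of Dlx2 and Gsx2 overlap there, and so do those of Gsx1 and Dbx1. In shControl the order was Dlx1, Dlx2 (3.88), Dlx5 (3.61), Gad1 (2.39), Gsx2 (1.91), Gad2 (0.993), Gsx1 (0.195), Dbx2 (0.154) and Dbx1 (0.0804) CPM per kilobase. In that group the ranges of Gsx1 and Dbx2 overlap and the other neighbours do not. Dbx2 thus stood beside Gsx1 in shControl and beside Gad2 in sh3F, without overlapping Gad2.

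Other transcription factors of the subpallium showed 0 calls. Of 20 listed genes 19 were in the table and 15 were tested; 6 had log2 fold changes above 0 and 9 below, from -0.40 to 0.47, with a median of -0.27 against -0.01 over all tested genes. The oligodendrocyte and ventral progenitor factor Olig2 measured 30.6 and 30.0 CPM in sh3F and 29.1 and 25.8 CPM in shControl (log2 fold change 0.14, edgeR adjusted p = 0.789), and Olig1 56.4 and 50.7 CPM in sh3F and 61.2 and 54.2 CPM in shControl (-0.11, adjusted p = 0.832). Factors of the medial ganglionic eminence were near the limit of detection in both groups: Nkx2-1 reached at most 0.484 CPM and Lhx6 at most 0.279 CPM. Dlx1, Dlx2 and Dlx5 were thus measured at 7.36 CPM or more in libraries with little Nkx2-1 or Lhx6.

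Genes of GABA handling and its receptors showed 0 calls among 8 tested, with 7 of 8 below 0 and a median log2 fold change of -0.25. The receptor subunit gene Gabra2 measured 19.9 and 21.4 CPM in sh3F and 22.7 and 22.1 CPM in shControl (-0.12, edgeR adjusted p = 0.839). Both sh3F libraries lay below both shControl libraries for 5 of the 8, against 21.7% of all tested genes, and above them for 0, against 19.6%. This was not particular to GABA genes. The libraries lay below for 5 of 8 dorsal telencephalic genes, 6 of 11 forebrain progenitor markers and 7 of 10 pan-neuronal markers. They lay above for 1, 1 and 0 of these. The dorsal and progenitor lists share Pax6, Emx1, Emx2 and Lhx2, and the pan-neuronal list was added after the data were seen. Of 15 tested subpallial transcription factors 5 lay below and 4 above. Of 9 Hedgehog genes 3 lay below and 2 above, and of 7 vascular and mesenchymal markers 2 and 2.

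Among genes of interneurons and striatal neurons 3 of 18 tested passed, 1 higher and 2 lower, and 15 did not pass. Over all tested genes 0.541% were called higher and 0.826% lower. The list was chosen with earlier results known, so nothing is read from these counts. The median log2 fold change was -0.11. Calb1, which encodes the calcium buffer calbindin, fell to 7.25 and 7.21 CPM in sh3F, against 12.2 and 13.2 CPM in shControl (log2 fold change -0.80, SE 0.19, edgeR adjusted p = 0.0105). Calb2, which encodes calretinin and marks Cajal-Retzius cells as well as interneurons, fell to 21.96 and 24.8 CPM in sh3F, against 42.6 and 34.3 CPM in shControl (-0.73, adjusted p = 0.00202). Ackr3, a scavenging receptor for the chemokine Cxcl12 that guides interneurons, rose to 8.10 and 9.19 CPM in sh3F, against 5.34 and 4.58 CPM in shControl (0.79, SE 0.22, adjusted p = 0.0403). None of the 3 genes overlaps between the groups, which adds little, because they are named for passing the test. Calb1 passed the threshold in 7 of 11 alternatives, Calb2 in 9 and Ackr3 in 6; each lost its call when libraries were scaled by total count only, and each lost it without sh3F replicate 1. Without sh3F replicate 2 the calls of Calb1 and Ackr3 were lost, and without shControl replicate 2 that of Ackr3; DESeq2 did not call Calb1 or Ackr3. The neuropeptide gene Npy measured 9.49 and 9.06 CPM in sh3F and 13.0 and 14.9 CPM in shControl (-0.58, edgeR adjusted p = 0.0966), and Sst, which encodes somatostatin, 9.38 and 9.64 CPM in sh3F and 9.89 and 9.09 CPM in shControl. The difference between Npy and Sst was not tested.

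**Figure D3:**
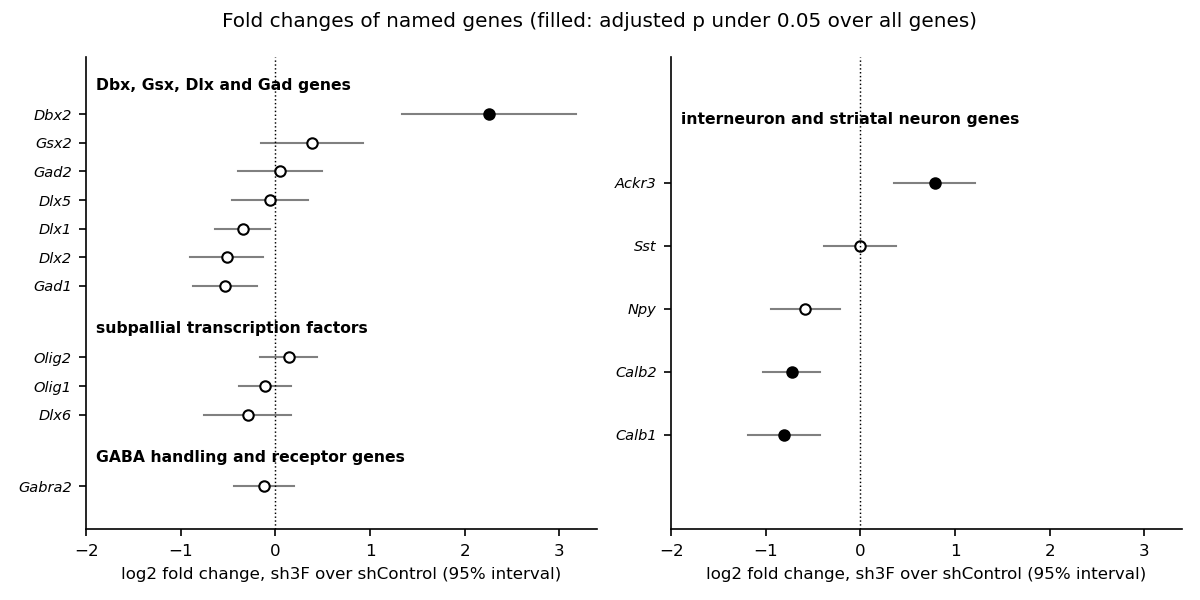
Log2 fold change of sh3F over shControl with its 95% interval for the 7 tested genes of the Dbx, Gsx, Dlx and Gad group and the named subpallial transcription factors and GABA receptor gene (left), and for named interneuron and striatal genes (right); filled points have an edgeR adjusted p under 0.05 over all tested genes. Dbx2, at 2.26, Ackr3, at 0.79, Calb2, at -0.73, and Calb1, at -0.80, are the filled points.

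The genes that accompany Dbx expression in the neural tube were mostly too low to test. Of 17 listed, 3 were tested and 0 passed. Nkx6-1, a ventral progenitor factor of the spinal cord, measured 4.52 and 3.04 CPM in sh3F and 2.55 and 4.24 CPM in shControl (log2 fold change 0.22, edgeR adjusted p = 0.839). Lhx5, an interneuron factor, measured 1.69 CPM in each sh3F library and 0.790 and 1.64 CPM in shControl (0.54, adjusted p = 0.693), and Prdm8 1.23 and 1.09 CPM in sh3F and 0.650 and 2.03 CPM in shControl (-0.11, adjusted p = 0.964). The spinal V0 interneuron gene Evx1, which depends on Dbx1 in the mouse spinal cord, had 0 counts in each library. Of the 14 genes too low to test, both sh3F libraries were above both shControl libraries for 3, below them for 0, and the groups overlap for 11; the 3, named after their values were seen and with at most 8.21 counts in any library, were Pax7, Olig3 and En1. The 19.6% of tested genes that lay above is no like background, because these 14 were too low to test. Summed over the 14, counts were 78 in sh3F and 54 in shControl. The scaled ratio was 1.48 with an exact interval of 1.03 to 2.13, counting error only. Pax7 held 15 of these counts in sh3F and 2 in shControl, Olig3 11 and 2, and En1 7 and 1. The excess in sh3F thus rests on the 3 genes named after their values were seen, and no rise across the list is read from it. Genes of the boundary between pallium and subpallium had 0 calls among 5 tested: Sfrp2, a secreted Wnt modulator of that boundary, measured 5.28 and 4.89 CPM in sh3F and 4.83 and 4.88 CPM in shControl (0.07, adjusted p = 0.953). Sema5a measured 9.02 and 7.65 CPM in sh3F and 7.63 and 8.14 CPM in shControl (0.09, adjusted p = 0.917), and Nrg1 2.72 and 3.0 CPM in sh3F and 3.76 and 4.66 CPM in shControl (-0.55, adjusted p = 0.432).

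The dorsal counterparts of these genes were also without a call. Of 8 tested, 7 had log2 fold changes below 0, with a median of -0.28. Pax6, which opposes Gsx2 at the boundary, measured 24.1 and 23.3 CPM in sh3F and 28.0 and 28.1 CPM in shControl (-0.24, edgeR adjusted p = 0.565). Emx2 measured 12.8 and 16.2 CPM in sh3F and 20.4 and 14.0 CPM in shControl (-0.27, adjusted p = 0.579), and Lhx2 32.4 and 33.9 CPM in sh3F and 42.5 and 37.5 CPM in shControl (-0.28, adjusted p = 0.442). In the Hedgehog pathway, the ventralising signal of the neural tube, 0 of 9 tested genes passed. Log2 fold changes ran from -0.63 for Ptch1 to 0.55 for Gli2 (edgeR adjusted p = 0.146 and 0.339), with a median of 0.09. The coreceptor gene Gas1 measured 15.0 and 15.8 CPM in sh3F and 17.8 and 21.3 CPM in shControl (-0.34, edgeR adjusted p = 0.399), Smo 7.03 and 6.12 CPM in sh3F and 6.73 and 7.31 CPM in shControl (-0.08, adjusted p = 0.928), and Cdon 6.02 and 5.08 CPM in sh3F and 6.04 and 8.11 CPM in shControl (-0.33, adjusted p = 0.605).

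**Figure D4:**
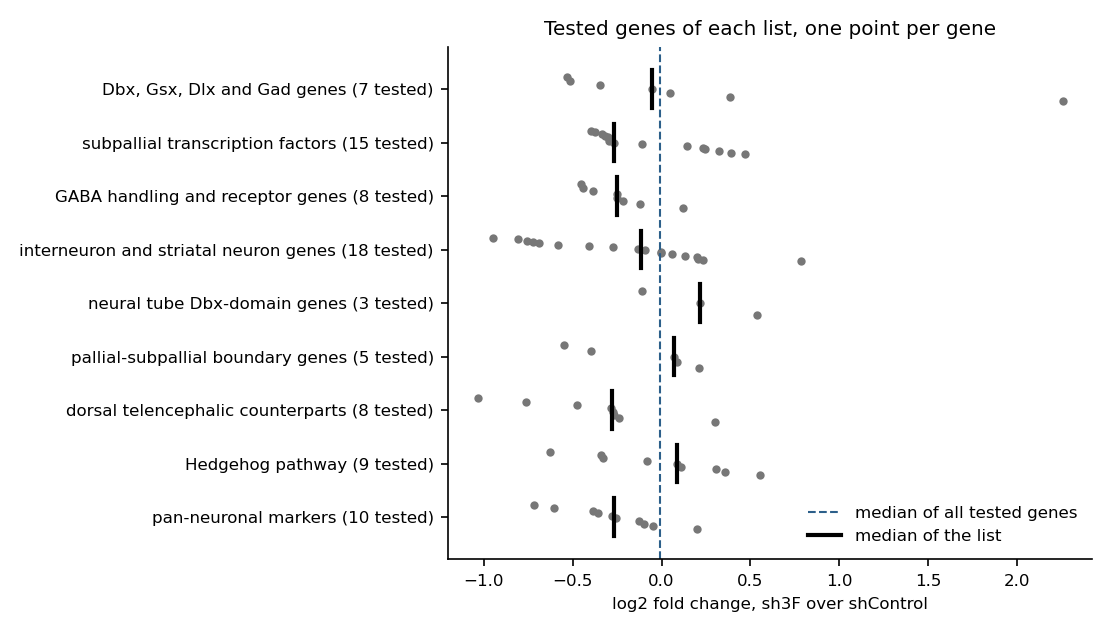
Log2 fold change of sh3F over shControl for each tested gene of 9 gene lists (points), with the median of each list (black bars) and the median of all 14050 tested genes (dashed line). The median is -0.05 for the Dbx, Gsx, Dlx and Gad genes, with Dbx2 apart at 2.26, and -0.27 for both the subpallial transcription factors and the pan-neuronal markers.

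The protein-coding genes next to Dbx2 did not pass the test. Within 500 kb of Dbx2 on chromosome 15 lie Nell2, 95004 bases away, and Ano6, 134883 bases away. Nell2, which encodes a secreted neuronal protein, measured 14.3 and 12.8 CPM in sh3F and 15.0 and 10.9 CPM in shControl (log2 fold change 0.05, edgeR adjusted p = 0.95). Ano6, which encodes a phospholipid scramblase, measured 6.42 and 6.72 CPM in sh3F and 3.65 and 6.25 CPM in shControl (0.44, adjusted p = 0.458). For Nell2 the groups overlap. For Ano6 they do not, but shControl replicate 2 lies close to the sh3F libraries, and the log2 fold change ranged from 0.07 without shControl replicate 1 to 0.85 without shControl replicate 2, where Ano6 passed the threshold with 1 shControl library left.

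By distance between centred log2 CPM profiles over the 4 libraries, the tested genes most like Dbx2 were Gm28819, Neu1, Gm14914, Rps3a3 and Col5a3, at distances of 0.17, 0.28, 0.44, 0.44 and 0.45. Gm28819, Gm14914 and Rps3a3 are annotated as pseudogenes. Neu1, a lysosomal sialidase gene on chromosome 17, measured 34.2 and 26.5 CPM in sh3F and 6.55 and 7.06 CPM in shControl. Col5a3, a collagen gene on chromosome 9, measured 1.01 and 0.782 CPM in sh3F and 0.186 and 0.150 CPM in shControl. With 4 libraries in 2 groups the measure gives most weight to the difference between groups.

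Markers of other brain regions and cell types were set beside the 9 genes. Of 15 Hox genes of the hindbrain and spinal cord 5 had 0 counts in each library (Hoxa2, Hoxa4, Hoxb8, Hoxd3 and Hoxd4). Of 5 tested Hox genes, 5 had log2 fold changes above 0 and 0 below, with a median of 0.58. Both sh3F libraries lay above both shControl libraries for 0 of these 5. The list summed to 24.1 and 18.4 CPM in sh3F and 12.1 and 21.8 CPM in shControl, most of it Hoxb1 with 17.5 and 14.9 CPM in sh3F and 9.48 and 17.0 CPM in shControl. Markers of diencephalon and midbrain summed to 27.4 and 24.4 CPM in sh3F and 19.9 and 23.6 CPM in shControl, where both sh3F libraries are the higher, as for Dbx2. Most of this was Tcf7l2, at 17.1 and 14.8 CPM in sh3F and 11.2 and 13.9 CPM in shControl. Foxa2 and Nkx2-4 had 0 counts in each library, and 0 of 5 tested genes of that list passed. Both sh3F libraries lay above both shControl libraries for 3 of these 5, against 19.6% of all tested genes. They lay below for 0, against 21.7%. Choroid plexus markers summed to 1164 and 1068 CPM in sh3F and 1825 and 815 CPM in shControl, nearly all Ttr, so the shControl libraries differed from each other in them. Myeloid markers summed to 34.1 and 28.2 CPM in sh3F and 30.0 and 33.7 CPM in shControl, and vascular and mesenchymal markers to 48.8 and 51.6 CPM in sh3F and 51.6 and 49.6 CPM in shControl. In none of these lists did a tested gene pass, and their part in the levels of the 9 genes was not tested.

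**Figure D5:**
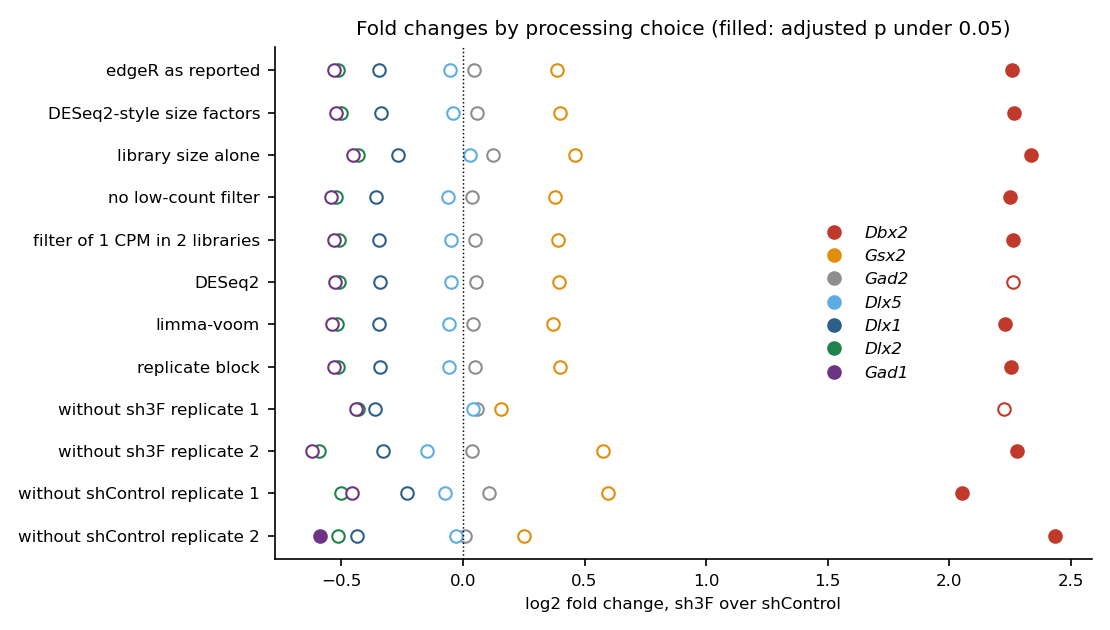
Log2 fold change of sh3F over shControl for the 7 tested genes of the Dbx, Gsx, Dlx and Gad group under edgeR as reported and under 11 other processing choices (rows); filled points have an adjusted p under 0.05. Dbx2 lies between 2.05 and 2.43 in all rows and is open with DESeq2 and without sh3F replicate 1, and Gad1 is filled without shControl replicate 2.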

How the data were processed

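RNA was sequenced from 2 sh3F and 2 shControl libraries. The authors deposited estimated counts per gene, not normalized; per the submitters' processing notes they came from Salmon with the builds GRCm38 and mm10, and the sources used here give no Salmon version, annotation release or use of strand. Identifiers were matched without version to GENCODE M21 (34582 of 34866). Estimated counts were rounded for testing with edgeR 4.0.16 in R 4.3.3: TMM scaling, filterByExpr with a minimum count of 10 (14050 genes kept), a robust quasi-likelihood F test, two-sided, and Benjamini-Hochberg adjustment over all tested genes with a threshold of 0.05. SE is the log2 fold change over the square root of F, and 95% intervals use its t distribution. Count ratios are scaled by the same library sizes and carry exact binomial intervals. The procedure was tested on simulated data. CPM per kilobase uses the union of M21 exons. Alternatives were DESeq2 1.42.0, limma-voom (limma 3.58.1), other scalings and filters, a replicate block, and leaving out each library.

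The 9 genes and the gene lists were chosen with earlier results of these data known; the pan-neuronal and further Dlx genes were added later. Named beyond the 9 were the targeted genes, each list's called genes and its 3 highest by CPM per kilobase, protein-coding genes within 500 kb of Dbx2, and the 5 genes nearest to its profile; a few low or related genes (Dlx3, Dlx4, Dlx6, Nkx2-1, Lhx6, Evx1, Sox2, Tcf7l2, Hoxb1, Ttr and genes at 0) were named after their values were seen. Dlx1as and Dlx6os1 were not analysed here, and some genes that the naming rule picks are not reported here.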

Additional observations from a re-analysis of the deposited data

How the results depend on the processing

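Genes called over all tested genes were 76 higher and 116 lower; DESeq2 gave 23 and 32, scaling by library size alone gave 28 lower, and leaving out 1 library gave 27 to 280 higher and 17 to 334 lower, with the spread of the group left with 1 library taken from the other group. Of the 9 genes, 1 was called higher, against 0 with DESeq2 and 0 to 1 without 1 library; 0 were called lower, and 0 to 1 without 1 library. The log2 fold change of Dbx2 was 2.26 with DESeq2, where its call was lost, and 2.05 to 2.43 without 1 library. Direction turned for some values near 0: with library size alone Dlx5 was at 0.0268, Sst at 0.0775 and Smo at 0.00047; Sst was at 0.0094 with DESeq2-style size factors, 0.0016 with a filter of 1 CPM in 2 libraries and 0.0033 with DESeq2; Prdm8 was at 0.20 with limma-voom. Without 1 library the ranges that include 0 were -0.15 to 0.0412 for Dlx5, -0.98 to 0.0275 for Zfp7, -0.0452 to 0.0623 for Sst, -0.14 to 0.59 for Nkx6-1, -0.79 to 0.85 for Prdm8, -0.0422 to 0.20 for Sema5a, -0.48 to 0.0378 for Emx2, -0.19 to 0.0097 for Smo and -0.13 to 0.31 for Nell2. The causes were not tested. A fit with replicate number as a block called 75 higher and 97 lower genes and gave Dbx2 2.25; it changed no call among the 9 genes. The labels do not say that the numbers pair the libraries, and the correlation of same-numbered deviations was -0.03 over 14050 genes. Library size alone moved the median of all tested genes to 0.07. Set against pan-neuronal markers, an alternative chosen after seeing the data, log2 ratios were 2.52 for Dbx2, -0.05 for Dlx1, -0.22 for Dlx2, 0.23 for Dlx5, 0.70 for Gsx2, -0.24 for Gad1 and 0.34 for Gad2. Depth limits Dbx1 and Gsx1 most, at 1 count each in the sh3F group.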
